A study of Mus musculus with 12 samples.

Results

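Markers of excitatory neurons and of their layers, 9 genes in all, were followed in mouse cortex: Slc17a7, Cux1, Cux2, Rorb, Fezf2, Bcl11b, Tbr1, Foxp2 and Tle4. They were chosen by name, as textbook markers of glutamatergic neurons and cortical layers, with earlier results of these data known. All 9 were found among the 23354 gene symbols of the expression table, and all 9 passed the minimum level used for testing, a mean of 0.5 FPKM (a level corrected for transcript length and for the number of mapped fragments) over the 12 libraries. The libraries are polyA RNA-seq of whole cortex at postnatal day 16, 1 mouse each, on a C57BL/6 background. Dnmt1 conditional knockout (CKO) mice were Olig1cre/+;Dnmt1flox/flox, and their littermate controls were Olig1+/+;Dnmt1flox/flox. Dnmt3a CKO mice were Olig1cre/+;Dnmt3aflox/flox, with Olig1+/+;Dnmt3aflox/flox littermates as controls. Each of the 4 groups held 3 mice. All mice, controls included, carried 2 floxed alleles of one DNA methyltransferase gene, and only the CKO mice carried cre, at 1 Olig1 allele. Olig1 is a transcription factor of the oligodendrocyte lineage. Which cells lost the floxed alleles cannot be read from whole cortex. By antibody staining, the study reported DNMT1 and DNMT3A lost from oligodendrocyte nuclei and still present in those of astrocytes and neurons. The study made the mice to test how the maintenance enzyme DNMT1 and the de novo enzyme DNMT3A bear on oligodendrocyte genes.

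The excitatory neurons of the cortex are born in sequence from progenitors of the dorsal telencephalon and settle in layers, the deep ones first. Neurons of the upper layers connect mainly within the cortex, those of layer 5 project to the brainstem, spinal cord and striatum, and those of layer 6 project to the thalamus. Slc17a7 encodes the vesicular glutamate transporter that loads synaptic vesicles in most of these cells. The other 8 genes encode transcription factors or a corepressor. Cux1 and Cux2 are homeodomain factors of the upper layers, and Rorb is a nuclear receptor of layer 4. Fezf2 specifies subcerebral projection neurons of layer 5, with Bcl11b (also called Ctip2) acting after it. Tbr1 is a T-box factor of layer 6 and early-born neurons, Foxp2 a forkhead factor of layer 6, and Tle4 a Groucho-type corepressor of layer 6 neurons. Bcl11b and Foxp2 are also expressed by the projection neurons of the striatum.

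The genes lie on 7 mouse chromosomes (mm10, positions from GENCODE M21, whole gene spans with exons and introns). Slc17a7 spans chr7:45163949-45176142 (plus strand) and its longest transcript has 9 exons. Cux1 spans chr5:136248135-136567490 and Cux2 chr5:121856366-122050102, both on the minus strand, with 24 and 23 exons. Rorb (chr19:18930605-19111196) and Tle4 (chr19:14448150-14598051) are likewise on the minus strand of one chromosome. Fezf2 spans chr14:12342094-12348189 and Bcl11b chr12:107910403-108003602, both on the minus strand with 4 exons. Tbr1 (chr2:61802930-61814114) and Foxp2 (chr6:14901349-15441977) are on the plus strand. Of the words of 50 bases in each gene's transcripts, at most 0.368% occur in another gene, the most in Tle4, which shares them with Tle1. On the opposite strand 1 gene overlaps Cux1 and 2 overlap Cux2. Of the annotated genes that overlap a member, Mir721 within Cux1 was listed in the table, at 0, and the others were not listed.

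DNMT1 and DNMT3A methylate cytosine mainly in the sequence CG. The CG content around the starts of Cux1 and Cux2 is therefore shown, with that of Bcl11b picked for contrast. DNA methylation itself was not measured in these samples. Promoter sequence came from RefSeq (GRCm38.p6, the same assembly as mm10), in which 8 of the 9 genes were matched, with 11 windows of 300 bases. Each stretch below runs 5′ to 3′ along the gene, from 120 bases before to 30 after the start in that source. By the GENCODE spans given above these genes begin farther upstream, so that each stretch lies within the span. Cux1 is chr5:136565952-136566101, Cux2 is chr5:122049822-122049971 and Bcl11b is chr12:108003385-108003534, all on the minus strand. Capitals mark CG, which reads the same on both strands.
Cux1: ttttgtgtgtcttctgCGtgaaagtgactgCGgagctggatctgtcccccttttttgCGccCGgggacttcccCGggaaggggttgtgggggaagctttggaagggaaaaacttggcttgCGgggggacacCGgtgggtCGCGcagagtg
Cux2: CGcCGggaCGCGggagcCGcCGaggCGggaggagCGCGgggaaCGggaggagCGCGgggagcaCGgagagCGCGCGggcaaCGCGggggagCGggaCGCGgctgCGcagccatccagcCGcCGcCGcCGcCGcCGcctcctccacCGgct
Bcl11b: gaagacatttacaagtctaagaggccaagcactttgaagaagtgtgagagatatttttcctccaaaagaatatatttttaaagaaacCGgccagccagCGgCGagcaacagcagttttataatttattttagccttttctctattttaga
The Cux2 stretch, from the first of its 2 windows, holds 29 CG, more than 99.3% of all promoter stretches of this length, whereas Cux1 holds 9 and Bcl11b 3. The median over all 32851 stretches is 4, and 86.2% hold at least 1. The other Cux2 window was CG-poor, with 4 CG in 300 bases against 48 in the window shown in part. Over the whole windows the members had a median of 20 CG against 7 in all promoters. Cux1 held 25, while Tle4 held 28 and 44 in its windows, Fezf2 20, Slc17a7 13, Bcl11b 9 and Tbr1 7. Rorb held 20 and 5. A relation of CG content to the differences between groups was not tested.

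The relative depth of the libraries, read from the steps between low values, ran from 0.856 to 1 of the deepest, and the absolute depth is unknown. The targeted genes were checked first. Dnmt1 was 10.6, 10.2 and 9.78 FPKM in Dnmt1 control mice and 7.26, 9.11 and 9.09 FPKM in Dnmt1 CKO mice. Dnmt3a was 31.1, 16.9 and 28.7 FPKM in Dnmt3a control mice and 13.6, 14.2 and 15.4 FPKM in Dnmt3a CKO mice. Thus the library labelled Dnmt3a control replicate 2 lay near the CKO libraries for Dnmt3a, while its Olig1 level of 49.8 FPKM lay with the other controls (44.1 and 48.4 FPKM) and above the Dnmt3a CKO mice (30.6 to 38.8 FPKM). The differences of the 9 markers in comparisons that use it are therefore also given without it, while the marker lists include it. All 10 markers of myelinating oligodendrocytes fell in the Dnmt1 line at 10% FDR, and none of them passed in the Dnmt3a line.

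All 9 markers were detected in every library. Slc17a7 had by far the highest level, with a mean of 460.2 FPKM over the 12 libraries, above 99.6% of the 14075 genes tested. Tbr1 followed at 23.9, Cux1 at 18.4, Tle4 at 14.1, Cux2 at 12.7, Bcl11b at 12.6 and Fezf2 at 10.3 FPKM. Rorb (4.24 FPKM) and Foxp2 (2.56 FPKM) were lowest. In this order the neighbours Tle4 and Cux2, Cux2 and Bcl11b, and Bcl11b and Fezf2 had overlapping ranges, and Cux2 was above Bcl11b in only 5 of the 12 libraries. The other neighbours had separate ranges and kept their order in 12 of 12 libraries. Precision differed between the genes: the median coefficient of variation within a group was 2.77% for Slc17a7 and 3.22% for Cux1, against 12% for Bcl11b and 16.5% for Foxp2, with 5.67% over all genes tested.

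**Figure D1:**
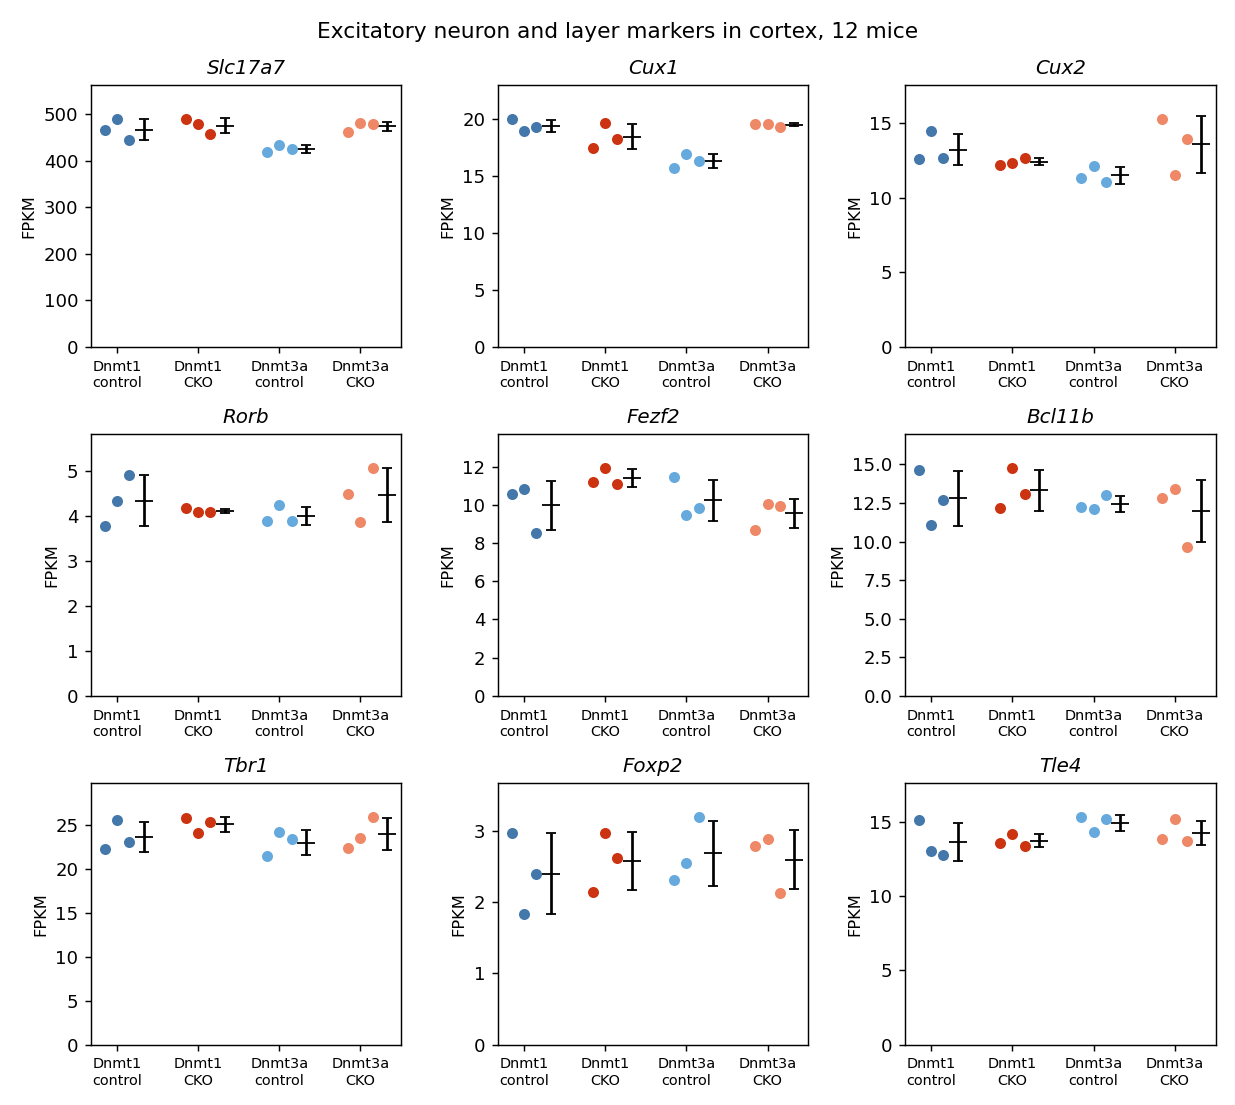
Level of each of the 9 markers (FPKM, linear axes from 0) in the 4 groups. Each point is 1 mouse, and the bars give the mean ± SD of 3 mice. For Slc17a7 and Cux1 the 3 Dnmt3a controls lie below the other 9 libraries, and for the other 7 genes they do not.

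Slc17a7 was 466.7, 488.8 and 444.6 FPKM in Dnmt1 control mice and 489.0, 479.0 and 457.0 FPKM in Dnmt1 CKO mice. It was 417.9, 433.7 and 424.4 FPKM in Dnmt3a control mice and 462.4, 480.0 and 479.0 FPKM in Dnmt3a CKO mice. The 2 groups of the Dnmt1 line overlapped, whereas every Dnmt3a control was below every Dnmt3a CKO mouse, and below every Dnmt1 library too. In bulk tissue such as this, fewer cells of a type and less RNA per cell cannot be told apart.

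Cux1 was 20.0, 19.0 and 19.3 FPKM in Dnmt1 control mice and 17.5, 19.7 and 18.2 FPKM in Dnmt1 CKO mice. In the Dnmt3a line it was 15.7, 16.9 and 16.3 FPKM in the controls and 19.6, 19.6 and 19.3 FPKM in the CKO mice. As for Slc17a7, the Dnmt3a controls were low and the other 3 groups lay close together. Cux2 was 12.6, 14.5 and 12.7 FPKM in Dnmt1 control mice, 12.2, 12.4 and 12.7 in Dnmt1 CKO mice, 11.4, 12.2 and 11.03 in Dnmt3a control mice and 15.3, 11.5 and 14.0 FPKM in Dnmt3a CKO mice. For Cux2, 2 of the Dnmt3a CKO mice were above all Dnmt3a controls, but the third lay among them.

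Rorb, the layer 4 marker, ran from 3.79 to 4.92 FPKM in Dnmt1 control mice and from 4.09 to 4.17 FPKM in Dnmt1 CKO mice. It ran from 3.89 to 4.24 FPKM in Dnmt3a control mice and from 3.87 to 5.07 FPKM in Dnmt3a CKO mice. The groups overlapped in both lines.

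In layer 5, Fezf2 was 10.6, 10.8 and 8.51 FPKM in Dnmt1 control mice and 11.2, 11.9 and 11.1 FPKM in Dnmt1 CKO mice, so that the CKO mice lay above the controls. In the Dnmt3a line it overlapped, from 9.44 to 11.5 FPKM in the controls and from 8.68 to 10.1 FPKM in the CKO mice. Bcl11b was 14.7, 11.1 and 12.7 FPKM in Dnmt1 control mice, 12.2, 14.8 and 13.1 in Dnmt1 CKO mice, 12.2, 12.1 and 13.0 in Dnmt3a control mice and 12.8, 13.4 and 9.67 FPKM in Dnmt3a CKO mice. The groups overlapped in both lines, and the lowest library, Dnmt3a CKO replicate 3, stood below the other 11.

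In layer 6, Tbr1 ran from 22.3 to 25.5 FPKM in Dnmt1 control mice, from 24.1 to 25.7 in Dnmt1 CKO mice, from 21.4 to 24.1 in Dnmt3a control mice and from 22.4 to 25.9 FPKM in Dnmt3a CKO mice. Foxp2 was 2.96, 1.83 and 2.40 FPKM in Dnmt1 control mice, 2.14, 2.96 and 2.62 in Dnmt1 CKO mice, 2.31, 2.55 and 3.19 in Dnmt3a control mice and 2.78, 2.88 and 2.12 FPKM in Dnmt3a CKO mice. Tle4 ran from 12.7 to 15.1, from 13.4 to 14.2, from 14.3 to 15.3 and from 13.7 to 15.2 FPKM in these 4 groups in the same order. All 3 layer 6 genes overlapped between CKO and control in both lines.

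The first comparison asked whether the layer markers differed between Dnmt1 CKO mice and their littermates. None of the 9 genes passed 10% FDR (limma on log2(FPKM + 0.1), Benjamini-Hochberg over all genes tested), where 3.15% of all genes did, and none had an unadjusted p under 0.05, against 15% of all genes. Fezf2 had the highest estimate, a log2 fold change of 0.20 (SE 0.10, 95% interval −0.04 to 0.44, limma adjusted p = 0.427). It was the only member whose groups did not overlap, as was so for 20.8% of all genes (6.37% with the CKO mice higher), and the exact permutation test gave it p = 0.1, the smallest that 3 mice against 3 allow. Without Dnmt1 control replicate 3, in which Fezf2 was lowest, its estimate was 0.09. Estimates for the upper-layer genes were −0.07 (SE 0.05) for Cux1 and −0.09 (SE 0.06) for Cux2, with intervals of −0.20 to 0.05 and −0.24 to 0.06. Slc17a7 was at 0.03 (SE 0.06, interval −0.13 to 0.18) and Tbr1 at 0.09 (SE 0.06, interval −0.06 to 0.23). Rorb (−0.07, SE 0.10), Bcl11b (0.06, SE 0.12) and Tle4 (0.01, SE 0.07) were each within 1 SE of 0. Foxp2 was at 0.11 (SE 0.20), and its interval was far wider, from −0.37 to 0.60. The median log2 fold change of the 9 genes was 0.03 and that of all genes tested was −0.02.

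The same comparison in the Dnmt3a line called none of the 9 genes at 10% FDR (limma), where 2 genes of 14075 passed (0.0142%). Slc17a7 and Cux1 had an unadjusted p under 0.05, as 7.35% of all genes did, and were the members whose groups did not overlap, as was so for 12.8% of all genes (7.32% with the CKO mice higher). Cux1 averaged 16.3 ± 0.615 FPKM in controls and 19.5 ± 0.139 FPKM in CKO mice (mean ± SD, n = 3 each), with every CKO mouse above every control. Its log2 difference was 0.26 (SE 0.04, interval 0.17 to 0.34, limma adjusted p = 0.657). For Slc17a7 the log2 difference was 0.16 (SE 0.05, interval 0.04 to 0.27, adjusted p = 0.657). Cux2 had a similar estimate with a wider error, 0.23 (SE 0.11, interval −0.03 to 0.49, adjusted p = 0.663), which was 0.14 without Dnmt3a CKO replicate 1. Rorb was at 0.15 (SE 0.11, adjusted p = 0.775), and at 0.06 without Dnmt3a CKO replicate 3 or 0.25 without replicate 2. The 5 deep-layer genes lay between −0.10 for Fezf2 and 0.06 for Tbr1. Without the library labelled Dnmt3a control replicate 2, the differences were 0.28 for Cux1 (adjusted p = 0.534), 0.17 for Slc17a7 (adjusted p = 0.718), 0.27 for Cux2 and 0.19 for Rorb, those of the deep-layer genes ran from −0.15 for Fezf2 to 0.09 for Tbr1, and none passed.

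**Figure D2:**
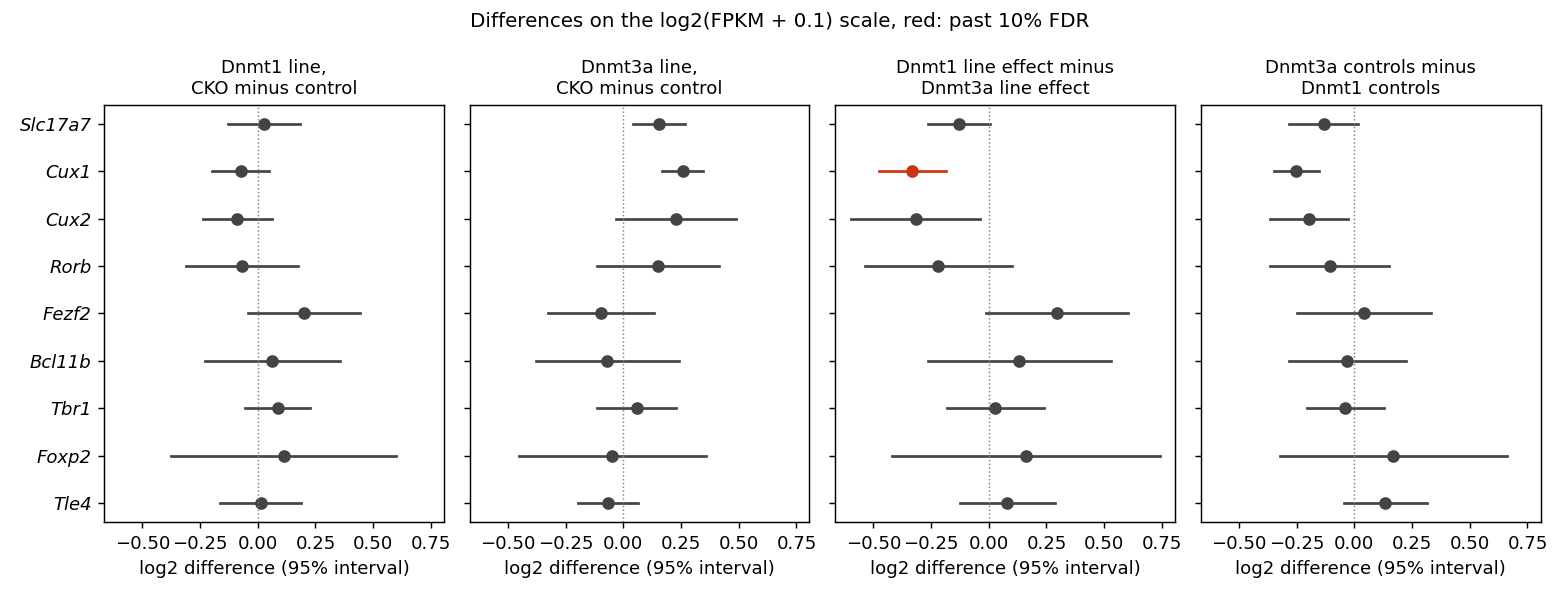
Log2 differences of the 9 markers on the log2(FPKM + 0.1) scale, with 95% intervals from limma, in 4 comparisons: CKO minus control in each line, the difference between those 2 effects, and Dnmt3a controls minus Dnmt1 controls. Red marks the one value past 10% FDR, Cux1 in the difference between the lines, at −0.33.

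An interaction term over the 12 libraries tested whether the CKO effect was the same in both lines. Cux1 was the 1 member of 9 that passed 10% FDR, where 2.12% of all genes did (1.83% with a value below 0). At an unadjusted p under 0.05 there were 2 members, Cux1 and Cux2, against 10.6% of all genes. The Dnmt1 effect minus the Dnmt3a effect was −0.33 for Cux1 (SE 0.07, interval −0.47 to −0.19, limma adjusted p = 0.029). Cux2 pointed the same way, at −0.32 (SE 0.13, interval −0.60 to −0.04, adjusted p = 0.397), and passed only when Dnmt3a CKO replicate 2 was left out (−0.43, adjusted p = 0.0796). The value for Cux1 ran from −0.38 to −0.29 as each library was left out in turn, with adjusted p from 0.00907 to 0.0843, and was −0.36 (adjusted p = 0.0334) without the library labelled Dnmt3a control replicate 2. With the replicate number as a block it did not pass (adjusted p = 0.136). The other members lay between −0.22 for Rorb and 0.30 for Fezf2, and did not pass. Without that library they lay between −0.26 for Rorb and 0.35 for Fezf2, and Cux2 was at −0.36 (adjusted p = 0.411). Of 15 further genes of the upper layers and layer 4, none passed in the interaction, and 7 were above 0 and 8 below (median −0.04).

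The interaction uses the controls of both lines, which were also compared with each other. None of the 9 genes passed 10% FDR between them (limma), where 1 gene of 14075 did (0.0071%), and Cux1 and Cux2 had an unadjusted p under 0.05, against 7.72% of all genes. Cux1 was lower in Dnmt3a control mice by a log2 difference of −0.25 (SE 0.04, interval −0.35 to −0.15, adjusted p = 0.586), a size like that of the CKO difference in the Dnmt3a line. Cux2 was at −0.20 (SE 0.07, adjusted p = 0.622) and Slc17a7 at −0.13 (SE 0.06, adjusted p = 0.678). Without the library labelled Dnmt3a control replicate 2 the 3 values were −0.28, −0.24 and −0.15, and no member passed. These 3 genes did not overlap between the control groups, as was so for 12.6% of all genes (8.59% with the Dnmt3a controls lower). The Dnmt3a controls thus enter each of these comparisons, and Slc17a7 and Cux1 were among 116 genes (0.824% of those tested) for which they lay below all 9 other libraries. Without the library labelled Dnmt3a control replicate 2 the count was 354 (2.52%). Fewer libraries then had to lie below the other 9, so the 2 counts cannot be set against each other. The pan-excitatory marker sum was also low in the Dnmt3a controls, 1405 to 1446 FPKM, against 1549 to 1657 in Dnmt3a CKO mice and 1452 to 1577 in Dnmt1 control mice. Most of that sum is Nrgn and Camk2a. Between the control groups Nrgn averaged 750.5 FPKM in the Dnmt3a line and 823.6 in the Dnmt1 line and Camk2a 472.7 and 467.5 FPKM, and of the 12 genes 5 were higher and 7 lower in Dnmt3a controls (median log2 difference −0.03). The sum of 15 further genes of the upper layers and layer 4 overlapped between the control groups. It was 229.2 to 232.8 FPKM in Dnmt3a controls and 219.7 to 242.3 in Dnmt1 controls. The interneuron sum was 566.9 to 630.2 FPKM in Dnmt3a controls, 663.3 to 697.8 in their CKO littermates and 586.3 to 617.7 in Dnmt1 controls. In the Dnmt3a line 4 of 12 interneuron markers had an unadjusted p under 0.05, against 7.35% of all genes, and none passed 10% FDR. They were Pvalb (0.43), Lamp5 (0.18), Vip (0.18) and Sst (0.17). Of the 12, 9 were above 0 and 3 below, namely Reln (−0.09), Gad2 (−0.07) and Lhx6 (−0.02), and Gad1 was at 0.06. Most of the interneuron sum is Sst and Npy, with means of 249.3 and 116.4 FPKM over the 12 libraries. Apart from Pvalb, these genes were named after their values were seen. The myelin marker sum was 2478 to 2959 FPKM in Dnmt3a controls, 2706 to 3086 in Dnmt3a CKO mice and 1948 to 2267 in Dnmt1 control mice, and the astrocyte sum was 856.0 to 878.9, 917.0 to 983.9 and 851.2 to 880.2 FPKM. The part of these in the Cux1 values was not tested.

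The 9 genes did not vary together from mouse to mouse. Of their 36 pairs, 19 had a Pearson r above 0 over the 12 libraries. Bcl11b and Foxp2 went together most closely (r = 0.782, and 0.905 within groups). Slc17a7 and Cux1 had r = 0.725 over all libraries but −0.005 within groups, so that their likeness lay in the group means. Rorb and Tle4 were the most opposed (r = −0.74, and −0.873 within groups). These values share libraries and group structure and are given as a description.

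**Figure D3:**
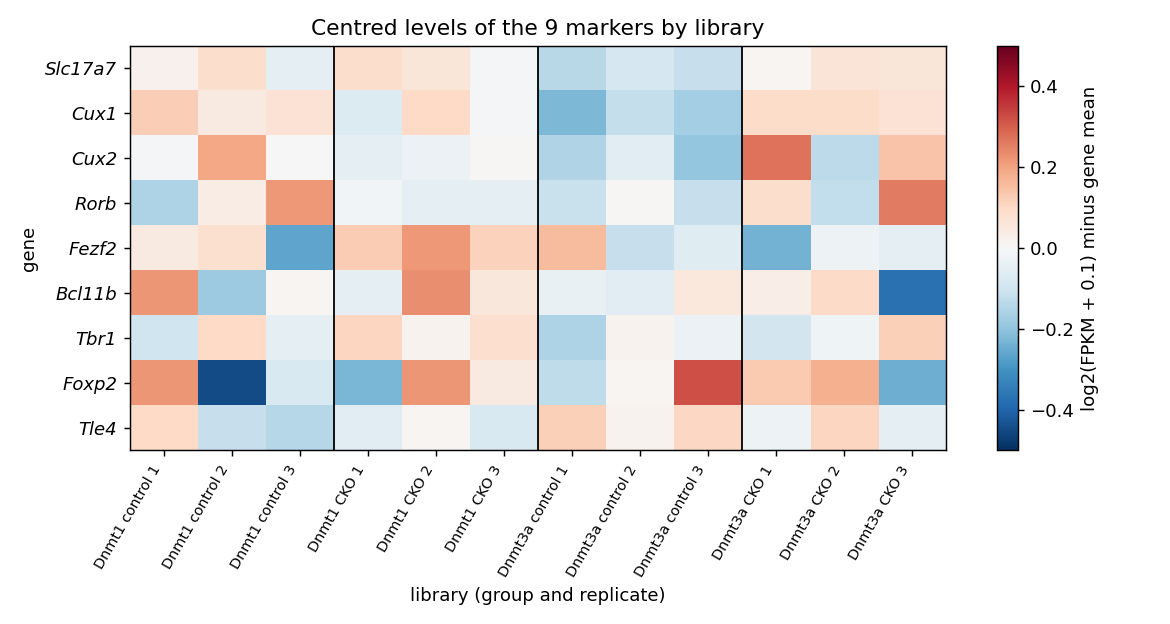
Centred log2(FPKM + 0.1) of the 9 markers (rows) in each of the 12 libraries (columns), as the difference from the gene's mean, with black lines between groups. Bcl11b and Foxp2 are low together in Dnmt1 control replicate 2 and Dnmt3a CKO replicate 3, and Slc17a7 and Cux1 are low in the 3 Dnmt3a controls.

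The balance of upper against deep layers was read in each library as the mean centred log2 level of Cux1, Cux2 and Rorb minus that of the 5 deep-layer genes. It was −0.11, 0.20 and 0.20 in Dnmt1 control mice and −0.03, −0.13 and −0.06 in Dnmt1 CKO mice. It was −0.15, −0.03 and −0.24 in Dnmt3a control mice and 0.19, −0.12 and 0.28 in Dnmt3a CKO mice. The groups overlapped in both lines. The highest values were those of Dnmt3a CKO replicate 3 (0.28), Dnmt1 control replicates 2 and 3 (0.20 each) and Dnmt3a CKO replicate 1 (0.19). Bcl11b and Foxp2, both part of the deep-layer mean, had their lowest levels in Dnmt3a CKO replicate 3 and Dnmt1 control replicate 2 but not in the other 2 of these libraries.

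Since the striatum lies under the cortex and also expresses Bcl11b and Foxp2, the summed level of 11 striatal markers was set beside each gene. These include the dopamine receptors Drd1a and Drd2, the phosphoprotein Ppp1r1b, the phosphodiesterase Pde10a and the regulator Rgs9. The most abundant were Ppp1r1b and Penk, with means of 98.96 and 59.3 FPKM over the 12 libraries. Drd1a and Drd2 had means of 7.17 and 5.82 FPKM. Penk was named here for its level. All 11 had a mean of at least 0.5 FPKM here, several are also expressed in cortex, and none is one of the 9 genes. The sum was 381.0, 196.6 and 347.4 FPKM in Dnmt1 control mice, 223.6, 383.8 and 297.2 in Dnmt1 CKO mice, 239.4, 320.6 and 380.3 in Dnmt3a control mice and 384.1, 380.6 and 214.0 FPKM in Dnmt3a CKO mice. Low and high libraries occurred in every group.

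Foxp2 followed this sum closely (Pearson r = 0.929, permutation p = 1e-05, the smallest the 100000 resamples can give, adjusted p = 9e-05 over 9 relations). Spearman's rho was 0.86 (permutation p = 0.00055, adjusted p = 0.005). Its r was 0.956 within groups, and 0.87 without Dnmt1 control replicate 2 and Dnmt3a CKO replicate 3, the 2 libraries farthest from the median sum. Bcl11b did so as well (r = 0.796, permutation p = 0.00038, adjusted p = 0.0017), with rho 0.797 (permutation p = 0.0032, adjusted p = 0.014), r = 0.905 within groups and 0.652 without those 2 libraries. Tbr1 ran the other way without passing (r = −0.541, permutation p = 0.073, adjusted p = 0.22; rho −0.615, adjusted p = 0.11), and its r was −0.254 without them. For Cux1 r was 0.256 over all libraries (adjusted p = 0.43 by permutation), with rho 0.566 (permutation p = 0.059, adjusted p = 0.13), and r was 0.687 within groups and 0.61 without those 2 libraries. For the other 5 genes r lay between −0.352 for Fezf2 and 0.394 for Tle4, with adjusted p = 0.43 each by permutation.

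**Figure D4:**
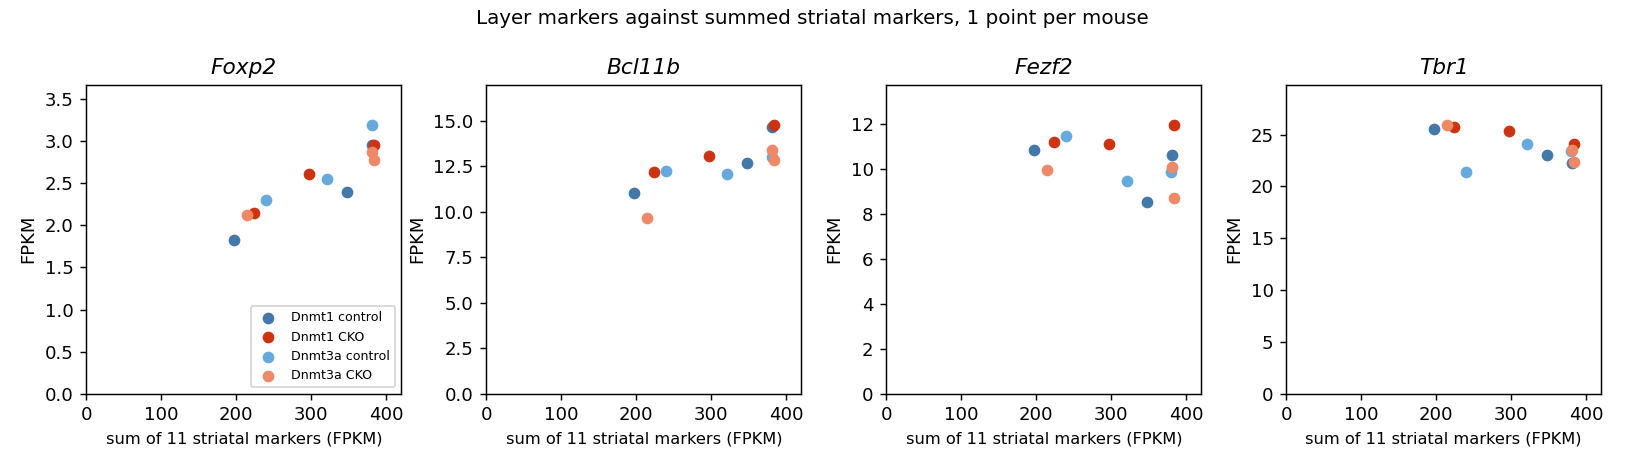
Level of Foxp2, Bcl11b, Fezf2 and Tbr1 (FPKM) against the summed level of 11 striatal markers (FPKM), 1 point per mouse, coloured by group. Foxp2 (r = 0.929) and Bcl11b (r = 0.796) are higher where the sum is higher, and r is −0.352 for Fezf2 and −0.541 for Tbr1.

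With the striatal sum as a covariate, a fit added after the data were seen, no member passed in either line. The SE of Foxp2 in the Dnmt1 line was 0.08 in that fit in place of 0.20, and that of Bcl11b was 0.05 in place of 0.12, with log2 fold changes of 0.12 and 0.07. Cux1 in the interaction was −0.33 (adjusted p = 0.0183), as large as without the covariate.

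By likeness over the 12 libraries (Pearson r of log2(FPKM + 0.1)), genes near to the mean profile of the 9 markers included Zcchc17 (r = 0.918), Sf3b2 (0.915), Slc26a10 (0.913) and Tceal3 (0.913). Foxp2 was most like Rgs9 (r = 0.934), one of the striatal markers. The nearest gene was Sepw1 for Slc17a7 (0.928), Acsbg1 for Cux1 (0.911), Filip1l for Cux2 (0.837) and Rps6kl1 for Rorb (0.854). It was Sema3c for Fezf2 (0.902), Klhl13 for Bcl11b (0.958), Otub2 for Tbr1 (0.933) and Fam167a for Tle4 (0.911). The gene given for each marker was picked as the highest of all genes tested over 12 points.

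None of 12 further pan-excitatory genes, 15 of the upper layers and layer 4, 11 of layer 5 and 13 of layer 6 and the subplate passed 10% FDR in either line (limma). At an unadjusted p under 0.05 there were 1, 2, 1 and 0 of them in the Dnmt1 line, against 15% of all genes, and 1, 2, 0 and 0 in the Dnmt3a line, against 7.35%. The median log2 fold changes were 0.05, −0.01, −0.00 and 0.03 in the Dnmt1 line and 0.07, 0.02, −0.01 and −0.08 in the Dnmt3a line. Nrgn, a postsynaptic calmodulin-binding protein and the most abundant of them (815.6 FPKM), moved by 0.00 (SE 0.08) in the Dnmt1 line and by 0.20 (SE 0.07, adjusted p = 0.657) in the Dnmt3a line. Lmo4 (95.02 FPKM), Pcp4 (448.3 FPKM) and Rprm (43.3 FPKM), the most abundant of the 3 layer lists, had values of 0.09, −0.03 and 0.08 in the Dnmt1 line.

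Among other cell types in the Dnmt1 line, all 10 myelinating oligodendrocyte markers fell, where 2.3% of all genes fell and 0.845% rose, with Opalin at −2.45, Mobp at −2.23, Ermn at −2.15 and Mal at −2.08. Of the 6 genes listed as progenitor markers 5 fell, Olig1 (−1.19), Sox10 (−0.81), Gpr17 (−0.56), Olig2 (−0.54) and Pdgfra (−0.30, adjusted p = 0.0464). The other, Cspg4, was at −0.0006 and did not pass. Pdgfra and Cspg4 were named after their values were seen. Olig1 holds cre at 1 allele in the CKO mice and was also lower in the Dnmt3a line (−0.49, without passing). The part of the cre allele in its level was not tested. Of 12 interneuron markers, Pvalb fell (−0.27, adjusted p = 0.0985), and of 7 astrocyte markers Gfap rose (0.45, adjusted p = 0.00646). No marker of the pan-neuronal, striatal, thalamic, hippocampal, microglial, endothelial or choroid plexus lists passed (10, 11, 9, 10, 6, 6 and 4 tested, with 1, 0, 1, 2, 0, 2 and 0 at an unadjusted p under 0.05, against 15% of all genes), and no marker of any list passed in the Dnmt3a line.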

How the data were processed

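PolyA RNA of cortex from 12 mice was sequenced on an Illumina HiSeq instrument. The authors aligned reads to mm10 with TopHat and quantified them with Cufflinks, and deposited FPKM values, 1 column per mouse. Tool versions, the annotation and any further scaling are not given in the sources used here. FPKM is already scaled by depth and length, so read counts and counting error are unknown, and no count test was run.

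Of 23850 rows, 302 exact duplicates were removed. Testing kept the 14075 symbols that averaged 0.5 FPKM or more, each by its row with the highest mean, on log2(FPKM + 0.1), a scale that understates changes of low genes. Groups came from the labels. Comparisons used limma 3.58.1 in R 4.3.3 (lmFit, eBayes with trend), Benjamini-Hochberg adjustment over all genes and 10% FDR in place of the study's Cuffdiff test. Correlations and exact tests used scipy 1.17.1 in Python 3.11.15. The 2 lines' comparisons share no samples, but the interaction and the comparison of controls reuse their samples. The procedure was tested on simulated data. Named genes are the 9 markers, from each marker list up to 4 called genes with the largest change or else the most abundant gene, the targeted genes, Olig1 and the most alike genes, of which 1 is not reported here. The members and lists were chosen with earlier results of these data known. Alternatives varied the pseudocount, filter, scaling, eBayes settings, duplicate rows, FDR, block, model and libraries.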

Additional observations from a re-analysis of the deposited data

Results flagged for a closer look

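The effect of the CKO differed between the lines for Cux1 (interaction, limma on all 12 libraries), where the Dnmt1 effect minus the Dnmt3a effect was −0.33 on the log2 scale. With the replicate number as a block it did not pass (adjusted p = 0.136). The Dnmt1 CKO mice did not differ from their controls past the threshold (−0.07), the Dnmt3a CKO mice lay above theirs (0.26) without passing, and the Dnmt3a controls lay below the Dnmt1 controls (−0.25) without passing.

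The same test of the difference between the lines passed for 15 markers of other cell types. Over all genes tested 2.12% passed (1.83% with a value below 0). The 15 were 10 of 10 myelinating oligodendrocyte markers and 3 of 6 genes listed for progenitors. The others were 1 of 12 interneuron markers and 1 of 7 astrocyte markers. On the progenitor list Olig2 (−0.54, limma adjusted p = 0.185), Pdgfra (−0.25, adjusted p = 0.347) and Cspg4 (−0.06, adjusted p = 0.939) did not pass. No pan-neuronal, striatal, thalamic, hippocampal, microglial, endothelial or choroid plexus marker passed. The values of 8 of the 15, named because they passed in the Dnmt1 line, follow. The astrocyte marker Slc1a2, named after its value was seen, was at −0.21 (adjusted p = 0.0975). The difference was −0.70 for Pvalb, a calcium-binding protein of interneurons. It was −2.53 for Opalin, −2.24 for Mobp, −2.01 for Ermn and −2.15 for Mal, all of myelinating oligodendrocytes. It was −0.70 for Olig1, −0.86 for Sox10 and −0.64 for Gpr17, all of the oligodendrocyte lineage. Groups of 3 were not tested for outliers.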

How the results depend on the processing

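No member passed in either line or between the controls under any alternative, and 740 values of single members kept their direction and their side of the threshold. Cux2 without Dnmt3a CKO replicate 2 and Cux1 with the block, both in the interaction, changed side. The 23 values that changed sign all left out 1 library and none was called. In the Dnmt1 line these ranges were −0.0357 to 0.166 for Bcl11b, −0.0600 to 0.272 for Foxp2, −0.0331 to 0.0895 for Tle4, −0.00848 to 0.0599 for Slc17a7 and −0.161 to 0.0236 for Rorb. In the Dnmt3a line they were −0.145 to 0.0855 for Foxp2, −0.157 to 0.0767 for Bcl11b and −0.000966 to 0.104 for Tbr1. In the interaction they were −0.0178 to 0.0873 for Tbr1, −0.0126 to 0.320 for Foxp2 and −0.0131 to 0.234 for Bcl11b. Between controls they were −0.130 to 0.0716 for Bcl11b, −0.0795 to 0.0186 for Tbr1, −0.00334 to 0.329 for Foxp2 and −0.0688 to 0.104 for Fezf2.

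Replicate numbers are shared between groups, but within the lines same-number libraries did not deviate together (correlations of −0.079 to 0.035). Between the controls the correlations were 0.201, 0.009 and −0.032 for same numbers and −0.164 to 0.157 for different numbers. With the replicate number as a block, 161 genes passed in the Dnmt1 line in place of 443, 1 in place of 2 in the Dnmt3a line, 231 in place of 299 in the interaction and 0 in place of 1 between controls. Members called in the interaction were 0 in place of 1, with Cux1 at adjusted p = 0.136.

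At 5% FDR 262 genes passed in the Dnmt1 line. In the Dnmt3a line 1 gene passed with a pseudocount of 1, a minimum mean of 1 FPKM, quantile normalization, all 12 libraries in 1 model, 5% FDR or the striatal covariate, and 17 with no filter. Between controls 0 passed with a pseudocount of 1 or all 12 libraries in 1 model, 7 with no filter and 6 with robust eBayes. Leaving out 1 library gave 198 to 339 genes in the Dnmt1 line (lowest without Dnmt1 CKO replicate 1, then 205 with Dnmt1 control replicate 2 left out), 2 to 5 in the Dnmt3a line, 205 to 326 in the interaction and 1 to 4 between controls, with 1 to 2 members in the interaction. The cause was not tested. The absolute depth is unknown, so its part in the errors was not tested.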
